A study of Homo sapiens with 9 samples.

Results

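NRF2, the transcription factor encoded by NFE2L2, was followed together with its inhibitor KEAP1 and with HMOX1, TXNRD1, TXN, SRXN1, PRDX1, GCLM and GCLC, 7 genes of antioxidant defence that NRF2 is known to regulate. These 9 genes were taken by symbol from the 23621 gene rows of an RNA sequencing table of the human cell line MOLT4, which derives from a T-cell acute lymphoblastic leukemia (T-ALL) and is long established in culture. Cells were treated for 6 h, and there were 3 libraries in each of 3 groups. The vehicle group received 0.1% DMSO, the solvent. The other groups carry the titles sunitinib, a kinase inhibitor, and MI-389, a phthalimide conjugate; phthalimides bind cereblon, a subunit of a ubiquitin ligase. The title of the series concerns GSPT1, which ends translation at stop codons, as an unintended target of degraders of this kind.

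Titles and source fields of the treated libraries disagree. A library titled MI-389 has sunitinib at 1 µM in its source field, and a library titled sunitinib has MI-389 at 0.1 µM there. Both the barcode list and the table's columns go by the titles, so groups are given as titled; if the source field is right, each statement on one compound belongs to the other. The doses differ, so a difference between the treated groups is one of compound and dose together. Whether replicates were separate cultures is not stated; the p-values rest on the spread between these libraries, which may be technical.

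NRF2 is made continuously and in resting cells is bound by KEAP1, the substrate adaptor of a ubiquitin ligase built on CUL3 and RBX1, which sends it to the proteasome. Oxidants and electrophiles modify cysteines of KEAP1, and NRF2 then escapes, pairs with a small MAF protein and binds antioxidant response elements near its targets. Because this control acts on the protein, the messenger RNA of NFE2L2 is not a measure of NRF2 activity; neither NRF2 protein nor its binding was measured here. The targets serve 3 systems: thioredoxin (TXN), which reduces protein disulfides and is recharged by the selenoprotein TXNRD1; peroxiredoxin (PRDX1), which destroys peroxides and is repaired by sulfiredoxin (SRXN1); and glutathione, whose rate-limiting synthesis is carried out by the catalytic subunit GCLC with its modifier GCLM. HMOX1 breaks down heme.

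Promoters were read from a RefSeq table of build GRCh38.p14, each window running from 250 bases before to 50 bases after a transcript start. Of the 9 genes, 7 matched, with 10 windows; PRDX1 and HMOX1 were the others. The core of the antioxidant response element, TGACNNNGC, was searched on both strands and occurred in windows of GCLM, KEAP1 and TXNRD1. The 3 stretches below give 1 example for each of these genes, out of 6 matches in all; capitals mark the match, and each is written 5′ to 3′ on the strand of its gene.
GCLM, chr1:93909446-93909474, minus strand: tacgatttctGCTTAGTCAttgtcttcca
KEAP1, chr19:10502784-10502812, minus strand: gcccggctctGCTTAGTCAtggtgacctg
TXNRD1, chr12:104286920-104286948, plus strand: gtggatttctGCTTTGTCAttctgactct
The matches lie 34 to 26 bases before the start of GCLM, 31 to 23 before that of KEAP1 and 102 to 94 before the downstream of 2 starts of TXNRD1. GCLM and KEAP1 share the same 9 letters, GCTTAGTCA. KEAP1 held 2 matches in all and TXNRD1 held 3. Those not printed include a match of TXNRD1 that spans its upstream start. No window of NFE2L2, TXN, SRXN1 or GCLC held the core, which says only that these letters are absent from this short window. Among 35116 promoters of the RefSeq set 13.3% held a match, and of the 8727 tested genes with a promoter 19.6% did. The AP-1 letters TGANTCA, which can overlap the antioxidant core, and the C/EBP-ATF letters TGATGNAA were in none of the 10 windows, against 7.71% and 3.62% of all promoters. These matches describe the sequence and do not show binding.

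Values are the authors' FPKM, which they normalized further in a way that is not stated. FPKM divide a gene's fragments by transcript length and by library size and so allow genes of different length to be set side by side. PRDX1 and TXN were among the most abundant messages of these cells: in DMSO their means exceeded 98.7% and 98.2% of the 12301 tested genes. TXNRD1 exceeded 90.4%, KEAP1 74.4%, NFE2L2 69.3%, GCLC 65.8% and GCLM 50.8%. This order held in DMSO and in the libraries titled sunitinib, and the libraries of neighbouring genes did not overlap except those of NFE2L2 (47.4 to 55.1 FPKM) and GCLC (40.8 to 48.6 FPKM) in DMSO. In the libraries titled MI-389 NFE2L2 (89.2 to 93.1 FPKM) stood above KEAP1 (40.6 to 45.1 FPKM), and its mean exceeded 82.4% of the tested genes.

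**Figure D1:**
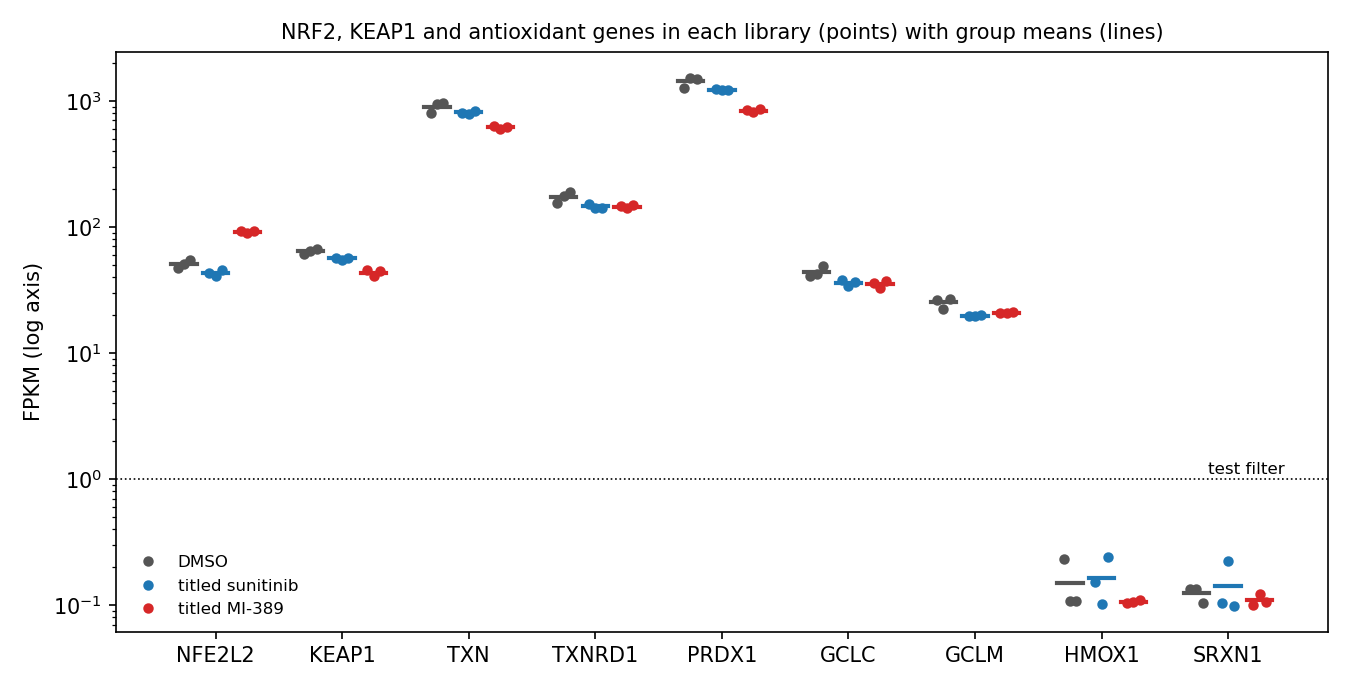
FPKM of the 9 genes on a log axis, with 1 point per library, a line at each group mean and a dotted line at the minimum mean of 1 FPKM required for testing. NFE2L2 is highest and KEAP1, TXN and PRDX1 are lowest in the libraries titled MI-389, while HMOX1 and SRXN1 reach at most 0.240 FPKM in any of the 9 libraries.

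HMOX1 and SRXN1 were not measurable. HMOX1, the heme oxygenase induced by oxidants, was listed at 0.232, 0.108 and 0.108 FPKM in DMSO, at 0.152, 0.102 and 0.240 in the libraries titled sunitinib and at 0.104, 0.106 and 0.110 in those titled MI-389. SRXN1 was listed at 0.135, 0.135 and 0.105, at 0.104, 0.223 and 0.0995, and at 0.101, 0.123 and 0.106 FPKM in the same order. The lowest value in the table was 0.0924 FPKM, and 6973 gene rows stayed below 0.15 FPKM in every library, so both genes sat at or near the floor that stands in for 0. Neither passed the minimum mean of 1 FPKM, neither was tested in the counts that follow, and no fold is given. The SRXN1 row is also uncertain because 85% of its exon bases in GENCODE v29 are shared with AL121758.1 on the same strand. The other 7 genes passed the minimum.

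Against DMSO, NFE2L2 rose and the other 6 tested genes fell in the libraries titled MI-389. All 7 were called at an adjusted p of 0.05 (limma, Benjamini-Hochberg over all tested genes), 1 higher and 6 lower, and in none of the 7 did the treated libraries overlap with DMSO. The background in this comparison was high: 56.7% of tested genes were called, 28.5% higher and 28.3% lower, while 30.5% had all treated libraries above and 29.7% all below DMSO. With the libraries centred on their medians, 39.4% of the calls were rises in place of 50.2%. The median log2 difference was −0.31 for the 7 genes and −0.00 for all tested genes. In bulk RNA, fewer cells that express a gene and less of its RNA per cell cannot be told apart.

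NFE2L2 stood at 47.4, 50.8 and 55.1 FPKM in DMSO and at 93.1, 89.2 and 91.9 FPKM in the libraries titled MI-389. All 3 treated libraries lay well above all 3 vehicle libraries. The means were 51.1 ± 3.83 and 91.4 ± 2.01 (SD, n = 3), a 1.79-fold rise; the log2 difference was 0.83, its 95% interval 0.69 to 0.97 and its adjusted p 6.59e-06. Only a small share of genes rose more, since 95.3% of tested genes had a lower log2 difference. Of the exon bases of NFE2L2, 10.8% are shared with AC019080.1 on the same strand, 4.19% with AC079305.1 and 1.19% with AGPS on the opposite strand. AGPS itself had means of 40.1 and 38.3 FPKM in these groups.

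KEAP1, the repressor, moved the other way. Its values were 60.6, 64.1 and 66.9 FPKM in DMSO and 45.1, 40.6 and 44.3 FPKM in the libraries titled MI-389, with no overlap. The mean fell 1.47-fold from 63.9 ± 3.19 to 43.4 ± 2.42 FPKM (SD, n = 3), or −0.55 on the log2 scale (95% interval −0.68 to −0.42, adjusted p = 3.86e-05). The ratio of NFE2L2 to KEAP1 FPKM within a library was therefore 0.783, 0.794 and 0.823 in DMSO and 2.06, 2.20 and 2.07 in the libraries titled MI-389. Its means were 0.800 ± 0.0206 and 2.11 ± 0.0743 (SD, n = 3), and the exact permutation p, two-sided, was 0.1, the smallest that 3 against 3 can give.

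The peroxiredoxin and thioredoxin messages fell as follows. PRDX1 was at 1261, 1518 and 1497 FPKM in DMSO and at 837, 807 and 853 FPKM in the libraries titled MI-389. Every treated library was below every vehicle library. The fall was 1.71-fold, with means of 1426 ± 143 and 832 ± 23.2 (SD, n = 3), a log2 difference of −0.77 (95% interval −0.94 to −0.61) and an adjusted p of 2.31e-05. TXN, the small disulfide reductase, stood at 803, 935 and 964 FPKM in DMSO and at 626, 597 and 620 FPKM after treatment, again without overlap. It fell 1.47-fold, by 0.55 on the log2 scale (95% interval −0.71 to −0.39, adjusted p = 0.000159). The kit does not mark strand, and 30.3% of the exon bases of PRDX1 are shared with MMACHC on the opposite strand; MMACHC had means of 11.2 FPKM in DMSO and 9.93 FPKM in the libraries titled MI-389. The size of both falls depended on the scaling, while the calls did not: PRDX1 was at −0.51 with quantile scaling and −0.42 with cyclic loess, and TXN at −0.26 and −0.22. TXN has 7 named pseudogenes and PRDX1 has 1, to which reads can be assigned in part.

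TXNRD1 and both subunits of glutamate-cysteine ligase fell by less than TXN on the deposited scale; with quantile scaling GCLC (−0.39) and GCLM (−0.37), and with cyclic loess GCLC (−0.35) and GCLM (−0.36), fell by more than TXN. TXNRD1, the reductase that recharges thioredoxin, was at 155, 174 and 189 FPKM in DMSO and at 146, 140.0 and 148 FPKM in the libraries titled MI-389, a 1.19-fold fall (log2 −0.25, 95% interval −0.41 to −0.08, adjusted p = 0.0158). The highest treated library lay close below the lowest vehicle library. GCLC was at 40.8, 42.5 and 48.6 FPKM in DMSO and at 36.0, 32.5 and 37.3 FPKM after treatment, 1.25-fold lower (log2 −0.31, 95% interval −0.49 to −0.13, adjusted p = 0.00836). GCLM was at 26.4, 22.5 and 26.8 FPKM against 20.6, 20.8 and 21.1 FPKM, 1.21-fold lower (log2 −0.26, 95% interval −0.41 to −0.11, adjusted p = 0.00805). The GCLC to GCLM ratio was 1.75 ± 0.179 in DMSO and 1.69 ± 0.116 in the libraries titled MI-389 (SD, n = 3), with overlapping libraries. This TXNRD1 call did not hold without MI-389 replicate 2 (log2 −0.23, adjusted p = 0.0559) or after cyclic loess scaling (log2 −0.07, adjusted p = 0.0818).

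**Figure D2:**
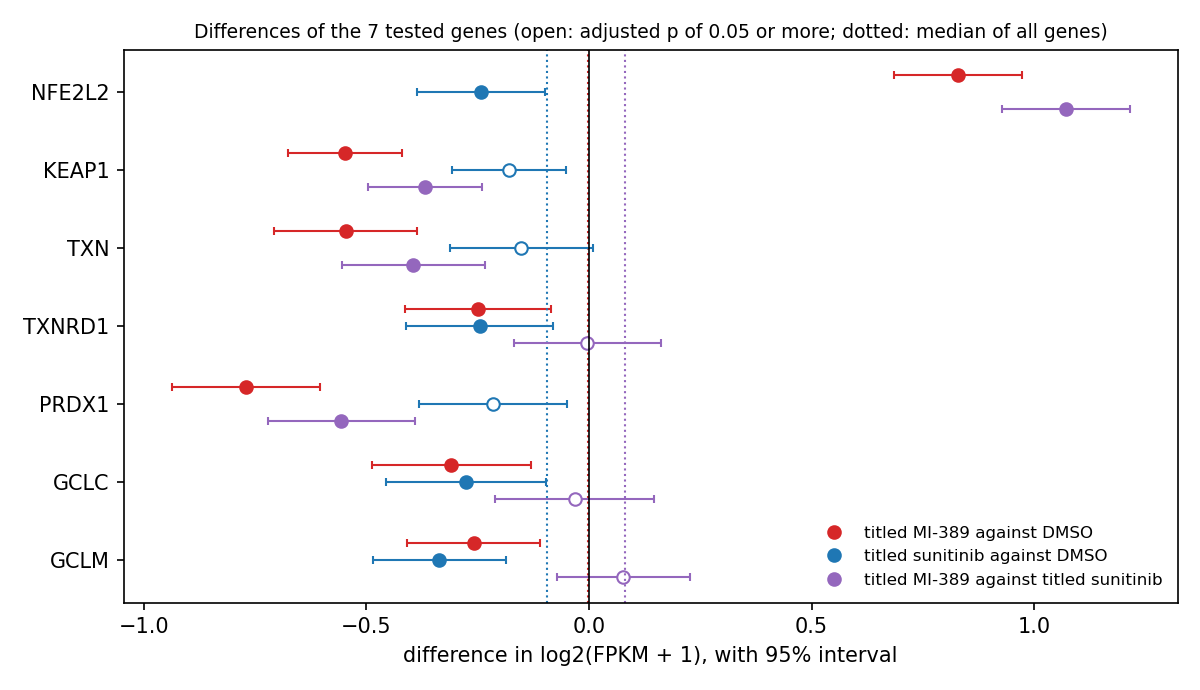
Differences in log2(FPKM + 1) of the 7 tested genes in 3 comparisons, as points with 95% intervals; open points did not pass an adjusted p of 0.05, and dotted lines mark the median of all tested genes. NFE2L2 alone was called higher in the libraries titled MI-389 (0.83 against DMSO and 1.07 against the libraries titled sunitinib). The intervals of TXNRD1, GCLC and GCLM between the treated groups include 0.

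Between the libraries titled sunitinib and DMSO the same genes differed less. GCLM, GCLC, TXNRD1 and NFE2L2 were called lower by limma, none was called higher (at an unadjusted p under 0.05 the numbers were 6 and 0), and KEAP1, TXN and PRDX1 did not pass. Over all tested genes 19.3% were called, 2.37% higher and 16.9% lower, and 4 of 7 is to be read against that last share. All libraries lay below DMSO for 6 of the 7 genes, against 29.3% of tested genes (5.89% lay above). The 7 genes had a median of −0.24 and all tested genes one of −0.10; with median centring 40.5% of the calls were rises in place of 12.3%.

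GCLM was at 19.5, 19.8 and 19.9 FPKM in the libraries titled sunitinib, below the 22.5 to 26.8 FPKM of DMSO. It was 1.28-fold lower (log2 −0.34, 95% interval −0.49 to −0.19, adjusted p = 0.0102), and this call held in all 17 alternatives, with adjusted p from 0.00675 to 0.0436. NFE2L2, at 42.8, 40.9 and 45.5 FPKM, was lower, at −0.24 on the log2 scale (95% interval −0.39 to −0.10, adjusted p = 0.0290), the opposite direction to its rise in the libraries titled MI-389. GCLC was at 37.8, 33.7 and 36.8 FPKM (1.22-fold lower, log2 −0.28, adjusted p = 0.0393). TXNRD1 was at 153, 142 and 141 FPKM (1.19-fold lower, log2 −0.25, adjusted p = 0.0446). For these 4 genes no treated library reached the lowest DMSO library.

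These last 3 calls were fragile. Each of the 3 was lost when DMSO replicate 2 (adjusted p = 0.0694 for NFE2L2, 0.0688 for GCLC and 0.109 for TXNRD1), DMSO replicate 3 (0.0681, 0.102 and 0.11), sunitinib replicate 1 (0.0774, 0.0606 and 0.0598) or sunitinib replicate 2 (0.115, 0.145 and 0.141) was left out, and without sunitinib replicate 3 GCLC (0.0974) and TXNRD1 (0.14) were lost. DMSO replicate 1 was the lowest DMSO library for each of the 7 genes but GCLM. Without this library all 7 genes were called lower by limma, with adjusted p of 0.0146 for KEAP1, 0.00024 for PRDX1 and 0.00145 for TXN.

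The 3 genes that did not pass had the following values. KEAP1 was at 56.7, 55.1 and 56.9 FPKM, below each DMSO library (log2 −0.18, 95% interval −0.31 to −0.05, adjusted p = 0.0549). PRDX1 was at 1228, 1225 and 1218 FPKM, also below each DMSO library (log2 −0.21, 95% interval −0.38 to −0.05, adjusted p = 0.0697). TXN, at 802, 789 and 832 FPKM, overlapped with the 803 to 964 FPKM of DMSO (log2 −0.15, 95% interval −0.31 to 0.01, adjusted p = 0.166). The NFE2L2 to KEAP1 ratio, 0.765 ± 0.0299 (SD, n = 3), overlapped with that of DMSO (exact permutation p = 0.3).

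Set against each other, the treated groups differed in NFE2L2, KEAP1, TXN and PRDX1. NFE2L2 was 2.12-fold higher in the libraries titled MI-389 than in those titled sunitinib (log2 1.07, 95% interval 0.93 to 1.21, adjusted p = 1.59e-06). PRDX1 was 1.47-fold lower (log2 −0.56, adjusted p = 0.000168), TXN 1.31-fold lower (log2 −0.39, adjusted p = 0.00116) and KEAP1 1.30-fold lower (log2 −0.37, adjusted p = 0.000454). No library of one treated group reached into the other for these 4 genes. Of all tested genes 56.3% were called, 36.0% higher and 20.3% lower; the 7 genes gave 1 higher, 3 lower and 3 not called.

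TXNRD1, GCLC and GCLM did not pass in this comparison as the values were deposited. The log2 differences were −0.00 (95% interval −0.17 to 0.16, adjusted p = 0.970) for TXNRD1, −0.03 (−0.21 to 0.15, adjusted p = 0.752) for GCLC and 0.08 (−0.07 to 0.23, adjusted p = 0.355) for GCLM. Libraries did not overlap in 5 of the 7 genes, 2 higher and 3 lower, where 42.5% and 27.0% of tested genes had such higher and lower values; GCLM was one of the 2, by a margin smaller than the spread in DMSO. Median centring moved the median of all tested genes in this comparison from 0.08 to −0.08 and the share of rises among calls from 63.9% to 40.3%. On that scale GCLC (log2 −0.20, adjusted p = 0.00392) and TXNRD1 (log2 −0.17, adjusted p = 0.00613) were lower in the libraries titled MI-389, and GCLM turned to −0.09 (adjusted p = 0.256). GCLC was also called lower with quantile scaling (log2 −0.22, adjusted p = 0.00230) and cyclic loess (log2 −0.17, adjusted p = 0.00870).

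Ratios within a library do not depend on a scaling factor between libraries. PRDX1 to TXN was 1.58 ± 0.0370 in DMSO, 1.52 ± 0.0461 in the libraries titled sunitinib and 1.35 ± 0.0187 in those titled MI-389 (SD, n = 3). TXN to TXNRD1 was 5.22 ± 0.136, 5.58 ± 0.327 and 4.25 ± 0.0544 in the same order. Both ratios were lower in every library titled MI-389 than in every other library, so the thioredoxin and peroxiredoxin messages fell by unequal amounts. The exact permutation p was 0.1 for each of these differences, the smallest that 3 against 3 can give.

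The genes that control NRF2 protein also differed in the libraries titled MI-389. In a list of 14 such genes, 13 were tested, with 2 called higher, 7 lower and 4 not called (median log2 −0.30). Here and in the lists that follow, counts are to be read against the shares over all tested genes. Those were 28.5% higher and 28.3% lower in this comparison, and 2.37% and 16.9% for the libraries titled sunitinib against DMSO. Between the treated groups they were 36.0% and 20.3%. CUL3, the scaffold of the KEAP1 ligase, fell 2.03-fold from 42.6 ± 1.99 to 21.0 ± 0.287 FPKM (SD, n = 3; log2 −0.99, adjusted p = 1.60e-06). RBX1, its RING subunit, fell 1.75-fold from 283 ± 14.4 to 162 ± 2.31 FPKM (log2 −0.80, adjusted p = 2.32e-06). With KEAP1, all 3 subunits of that ligase had lower messages, while the message of its substrate was higher. CUL3 and RBX1 also serve other ubiquitin ligases.

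Partners and competitors of NRF2 were in the same list. MAFK and MAFG, small MAF proteins that pair with NRF2, fell from 23.3 ± 2.42 to 13.6 ± 0.771 FPKM (adjusted p = 3.52e-05) and from 16.0 ± 1.38 to 12.1 ± 0.468 FPKM (adjusted p = 0.00118). SQSTM1, the autophagy receptor that can capture KEAP1, fell from 27.2 ± 2.29 to 20.1 ± 0.910 FPKM (adjusted p = 0.000511). These 3 genes were chosen for naming after their values were seen. The repressor BACH2, which competes for the same elements, rose 1.58-fold from a low 2.03 ± 0.0564 to 3.22 ± 0.0166 FPKM (adjusted p = 0.00251). Its relative BACH1 was called higher, at 16.7 ± 0.946 against 14.3 ± 1.08 FPKM (log2 0.22, adjusted p = 0.0282). The BACH1 call was lost without DMSO replicate 1 (adjusted p = 0.0934), DMSO replicate 2 (0.0589), MI-389 replicate 1 (0.106) or MI-389 replicate 2 (0.0528), and with no filter (0.066), quantile scaling (0.214), cyclic loess (0.102) or 6 libraries (0.0516).

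None of the 13 genes was called by limma in the libraries titled sunitinib, with a median of −0.11; at an unadjusted p under 0.05 there were 2, both lower. CUL3 was at 39.3 ± 2.74 FPKM (adjusted p = 0.212) and RBX1 at 279 ± 7.45 FPKM (adjusted p = 0.808). Without DMSO replicate 1, 5 of the 13 were called lower, and none was when any other library was left out. With quantile scaling or cyclic loess 2 were called higher, with median centring 1, and with the replicate block or no variance trend 1 was called lower. Between the treated groups 2 were called higher and 6 lower (11 lower with median centring, 10 with quantile scaling or cyclic loess), with CUL3 1.87-fold and RBX1 1.72-fold lower in the libraries titled MI-389. With libraries scaled by median or quantile, the number called lower against DMSO in the libraries titled MI-389 was 11 of 13 in place of 7, and with cyclic loess 10.

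**Figure D3:**
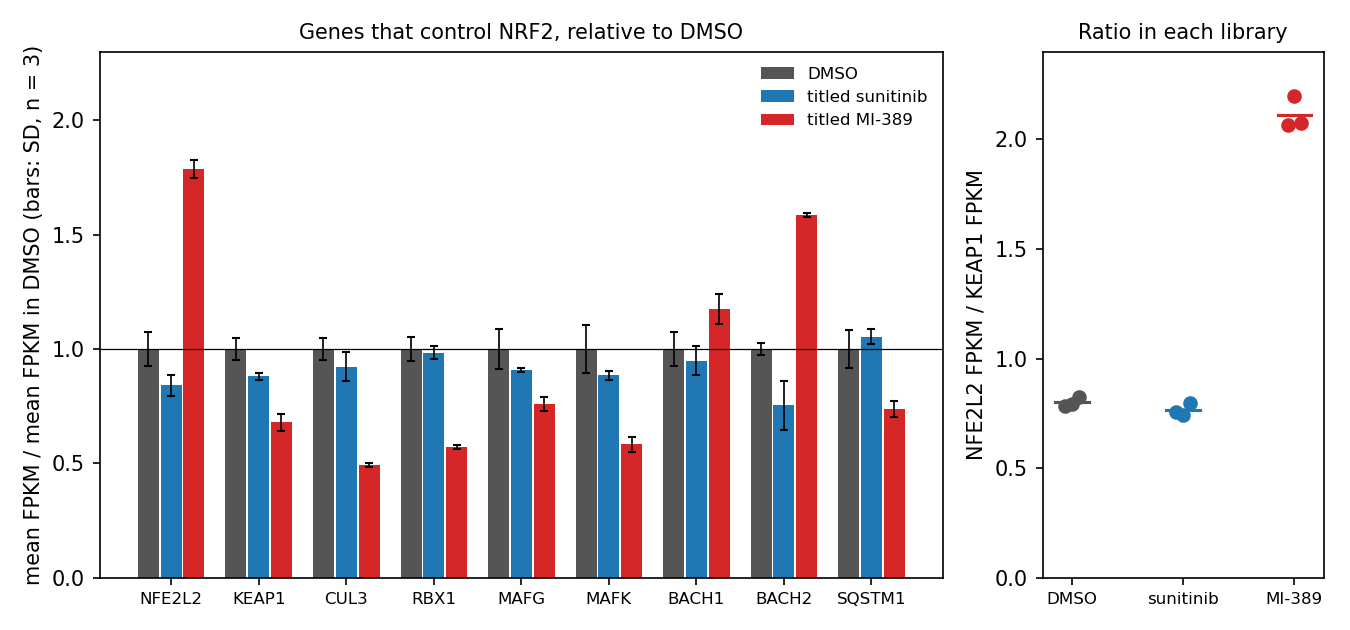
Left, mean FPKM of NFE2L2, KEAP1 and 7 further genes that control NRF2, divided by the DMSO mean, with SD over 3 libraries divided likewise. These 7 are a part of the 13 tested control genes, and all 7 were called in the libraries titled MI-389 against DMSO. The 4 control genes not called there are not drawn. Right, the NFE2L2 to KEAP1 ratio of FPKM in each library, which lies between 2.06 and 2.20 in the libraries titled MI-389 and between 0.742 and 0.823 in the others.

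Other known NRF2 targets mostly followed the fall of the antioxidant genes, with the cystine transporter as an exception. Of 29 further targets, 22 were tested, and in the libraries titled MI-389 2 were called higher, 13 lower and 7 not called (median log2 −0.29). Those lower were 17 with median centring, 16 with quantile scaling and 15 with cyclic loess. They were 15 without DMSO replicate 1 and 11 without DMSO replicate 2. CBR3, a carbonyl reductase, fell 2.45-fold from 13.8 ± 0.962 to 5.66 ± 0.814 FPKM (adjusted p = 2.43e-05). PGD, of the pentose phosphate pathway that supplies NADPH, fell 1.56-fold from 327 ± 36.9 to 209 ± 8.09 FPKM (adjusted p = 0.000106). SLC7A11, which imports cystine for glutathione, rose from 2.50 ± 0.299 to 41.4 ± 0.620 FPKM (adjusted p = 3.44e-09), and TRIM16, a ubiquitin ligase, rose 1.34-fold (adjusted p = 0.000471). SLC7A11 is known to be driven by ATF4 as well as by NRF2. NQO1, a quinone reductase often used to report NRF2 activity and named here after its values were seen, was at 9.75 ± 0.774, 10.2 ± 0.398 and 10.0 ± 1.36 FPKM in DMSO, the libraries titled sunitinib and those titled MI-389, with adjusted p of 0.651 and 0.781 against DMSO.

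With the sunitinib title 2 of these 22 were called higher, 4 lower and 16 not called (median log2 −0.06). GSR, glutathione reductase, was 1.29-fold lower (adjusted p = 0.00580), and ABCC4, an efflux pump, was 1.36-fold lower (adjusted p = 0.00734). SLC7A11 was 1.56-fold higher, at 3.89 ± 0.288 FPKM (adjusted p = 0.00499). IDH1, the cytosolic isocitrate dehydrogenase, was 1.20-fold higher at 63.6 ± 3.76 FPKM (adjusted p = 0.0210), a call lost without sunitinib replicate 1 (adjusted p = 0.0709) or sunitinib replicate 2 (0.0869) and with 6 libraries (0.067). Of the 22, 7 were called lower without DMSO replicate 1, and 2 without DMSO replicate 2, DMSO replicate 3, sunitinib replicate 2 or sunitinib replicate 3. The 22 gave 2 higher and 2 lower with median centring and 4 higher and 3 lower with cyclic loess. Between the treated groups 2 were called higher, 10 lower and 10 not called, and those lower were 18 with median centring and 16 with quantile scaling; SLC7A11 was 10.6-fold higher and IDH1 1.86-fold lower in the libraries titled MI-389.

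The wider thioredoxin and peroxiredoxin family split in the libraries titled MI-389: among its 19 genes 4 were called higher, 12 lower and 3 not called (median log2 −0.29). TXNIP, the protein that binds and blocks thioredoxin, rose 8.41-fold from 57.6 ± 3.83 to 484 ± 26.2 FPKM (SD, n = 3; adjusted p = 3.07e-09), while TXN itself fell. SESN2, a stress-induced sestrin, rose 13.6-fold (adjusted p = 7.17e-09). PRDX4, a peroxiredoxin of the secretory pathway, fell 1.88-fold from 118 ± 5.54 to 62.4 ± 0.115 FPKM (adjusted p = 7.59e-07), and GLRX5, a mitochondrial glutaredoxin, fell 1.44-fold (adjusted p = 0.000210). The other peroxiredoxins, PRDX2, PRDX3, PRDX5 and PRDX6, were all called lower on the deposited scale, by log2 differences of −0.42, −0.43, −0.45 and −0.31. On that scale all 6 peroxiredoxin messages fell. With quantile scaling 6 of the 19 genes were called higher and 12 lower (median log2 −0.18), and with cyclic loess 6 and 11 (median log2 −0.11).

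The libraries titled sunitinib showed 2 of the 19 called higher, 3 lower and 14 not called (median log2 −0.07). SESN3 was 1.60-fold higher (adjusted p = 0.00402) and PRDX4 1.26-fold lower (adjusted p = 0.00319). SESN2 (log2 0.32, adjusted p = 0.0366) was called higher and GLRX2 (log2 −0.28, adjusted p = 0.0350) lower, but both calls were lost without DMSO replicate 2 (adjusted p = 0.106 and 0.0857), DMSO replicate 3 (0.0503 and 0.1), sunitinib replicate 1 (0.104 and 0.0799) or sunitinib replicate 3 (0.095 and 0.0537), and GLRX2 also without sunitinib replicate 2 (0.132). With quantile scaling or cyclic loess 6 of the 19 were called higher and 3 lower, and with median centring 5 and 4. The number called lower was 9 without DMSO replicate 1, 2 without DMSO replicate 2 or sunitinib replicate 1, and 1 without sunitinib replicate 2 or 3. TXNIP was at 61.6 ± 1.95 FPKM (adjusted p = 0.316). Between the treated groups 4 of the 19 were called higher and 10 lower; those higher were 2 when any of these 6 libraries but MI-389 replicate 2 was left out.

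Glutathione genes other than the ligase differed in both directions. Of 19, 15 were tested, and the libraries titled MI-389 had 4 called higher, 8 lower and 3 not called (median log2 −0.17). CHAC1, which degrades glutathione, rose from 1.81 ± 0.879 to 150 ± 7.30 FPKM (adjusted p = 1.86e-08). SLC3A2, the partner chain of SLC7A11, rose 3.55-fold from 170 ± 13.3 to 604 ± 9.11 FPKM (adjusted p = 4.85e-08). MGST3, a microsomal glutathione transferase, fell 1.57-fold (adjusted p = 5.46e-05), and GPX7, a peroxidase, fell 1.52-fold (adjusted p = 0.000282). Among the other genes of glutathione breakdown, CHAC2 was at 49.0 ± 2.56 FPKM in DMSO and 53.9 ± 2.97 FPKM in the libraries titled MI-389 (not called). GGCT, which processes gamma-glutamyl peptides, was called lower, at 205 ± 15.1 and 182 ± 6.31 FPKM. Its libraries overlapped, with a lowest value of 187.7 FPKM in DMSO and a highest of 188.1 FPKM in the libraries titled MI-389. In this list 7 genes were called lower in place of 8 with spike-in rescaling, 6 libraries, the replicate block or no filter. Quantile scaling and cyclic loess also gave 7 lower, with 6 higher in place of 4. The number called lower was 9 without DMSO replicate 1, and 7 when any other library of these groups was left out.

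Against DMSO the libraries titled sunitinib had 2 of the 15 called higher, 2 lower and 11 not called (median log2 −0.06). CHAC1 was 2.22-fold higher at 4.02 ± 0.179 FPKM (adjusted p = 0.00914), and CBS, which makes the cysteine precursor cystathionine, was 1.23-fold higher (adjusted p = 0.0104). CHAC2, a relative of CHAC1, was 1.36-fold lower (adjusted p = 0.00302). GGCT was 1.21-fold lower (adjusted p = 0.0167). The GGCT call was lost without DMSO replicate 2 (0.0591), sunitinib replicate 2 (0.0624) or sunitinib replicate 3 (0.071). In each of these cases 1 gene was called lower in place of 2, and without DMSO replicate 1 there were 6. With quantile scaling or cyclic loess 4 were called higher and 2 lower. Between the treated groups 5 were called higher and 7 lower.

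Genes of heme, iron and superoxide handling also moved in both directions. Among 15 heme and iron genes, 3 were called higher in the libraries titled MI-389, 6 lower and 6 not called (median log2 −0.11). With median centring 2 were called higher and 9 lower, with quantile scaling 3 and 9, and with cyclic loess 3 and 7. Those higher were also 2 with no filter, 6 libraries or no variance trend, and when any library of these groups but DMSO replicate 3 was left out. Over all tested genes 28.5% were called higher and 28.3% lower. ALAS1, the first enzyme of heme synthesis, rose 2.16-fold from 31.3 ± 4.61 to 67.4 ± 2.78 FPKM (adjusted p = 8.48e-06). HMOX2, the constitutive heme oxygenase, fell 1.50-fold from 53.0 ± 5.21 to 35.3 ± 0.678 FPKM (adjusted p = 7.81e-05), and it was the heme oxygenase message that could be measured, since HMOX1 stayed near the floor. NCOA4, the receptor for ferritin breakdown, rose 1.38-fold (adjusted p = 0.000377), and SLC40A1, the iron exporter, fell 1.62-fold (adjusted p = 7.02e-05). SOD1, which converts superoxide to peroxide, fell 1.55-fold from 1129 ± 110 to 730 ± 15.9 FPKM (adjusted p = 7.36e-05), and its copper chaperone CCS rose 1.25-fold (adjusted p = 0.00433). Of the 4 superoxide and catalase genes 1 was called higher and 2 lower; the other call, of the mitochondrial SOD2 (log2 −0.19, adjusted p = 0.0339), was lost without DMSO replicate 2 (adjusted p = 0.0857), DMSO replicate 3 (0.0835), MI-389 replicate 2 (0.101) or MI-389 replicate 3 (0.0897).

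The libraries titled sunitinib had 5 of the 15 heme and iron genes called lower and 0 higher by limma (median log2 −0.09); at an unadjusted p under 0.05 these numbers were 7 and 0. With quantile scaling or cyclic loess 4 were called higher and 4 lower, with median centring 2 and 4, and with no filter or the 6 compared libraries 0 and 2. TFRC, the transferrin receptor, was 1.30-fold lower (adjusted p = 0.00570), and SLC40A1 was 1.27-fold lower (adjusted p = 0.0188), a call lost without sunitinib replicate 2 (0.0736) or sunitinib replicate 3 (0.0674), with median centring (0.073), quantile scaling (0.0551) or cyclic loess (0.0534), and with no filter (0.0555). The number called lower was 3 without DMSO replicate 3, 1 without sunitinib replicate 2 and 2 without sunitinib replicate 3. CCS was 1.29-fold higher (adjusted p = 0.0107), 1 of the 4 superoxide and catalase genes in that direction, and SOD2 was 1.21-fold lower (adjusted p = 0.0210). SOD2 was not called without DMSO replicate 2 (0.0605), sunitinib replicate 1 (0.0529), sunitinib replicate 2 (0.0759) or sunitinib replicate 3 (0.0749). In this comparison the medians of the target, thioredoxin, glutathione and heme lists turned to above 0 with median centring, quantile or cyclic loess scaling.

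**Figure D4:**
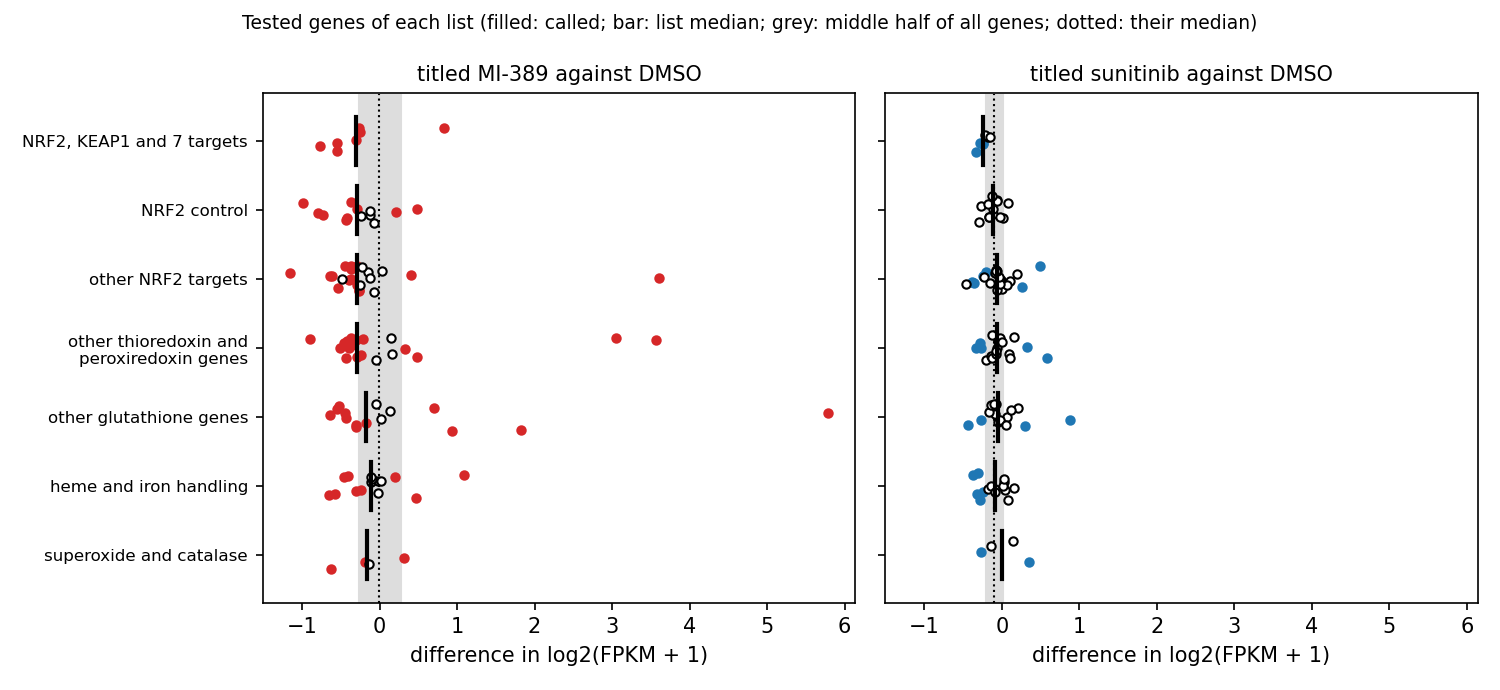
Differences in log2(FPKM + 1) from DMSO for the tested genes of 7 lists, 1 point per gene, filled where called; the black bar is the list median, the grey band holds the middle 50% of all tested genes and the dotted line is their median. In the libraries titled MI-389 the medians of the first 4 lists lie between −0.31 and −0.29, with a few genes far to the right (CHAC1 at 5.79, SLC7A11 at 3.60, SESN2 at 3.56 and TXNIP at 3.05).

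For each tested gene the most alike messages over the 9 libraries were found among 9897 candidates by Pearson correlation, given as a description. The libraries titled MI-389 stand apart from the other 6, and the correlations of NFE2L2, KEAP1, TXN and PRDX1 share that split. TXNRD1, GCLC and GCLM were instead lower in both treated groups than in DMSO, with means close together in the treated groups. NFE2L2 was most like BRAF (r = 0.9984), which had means of 8.94, 7.06 and 17.6 FPKM in DMSO, the libraries titled sunitinib and those titled MI-389, and IQCB1 (r = 0.9972); 1236 candidates reached 0.95. KEAP1 was most like KIAA0930 (r = 0.9969) and CBX6 (r = 0.9968). PRDX1 was most like HNRNPA0 (r = 0.9991) and KPNA2 (r = 0.9988), and TXN was most like SURF4 (r = 0.9967) and HN1 (r = 0.9964). TXNRD1 was most like SMARCC1 (r = 0.9904) and IQGAP1 (r = 0.9887), and GCLC was most like TTF2 (r = 0.981) and CKAP2 (r = 0.9804). GCLM, lowest in the libraries titled sunitinib, had the fewest close matches: POLR3G (r = 0.9537) alone reached 0.95, and POLE2 (r = 0.9498) came next.

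Facts of the series bear on all of these values. The table gives no read totals, so depth is unknown and no counting interval is given. Within-group correlations of log2 values were at least 0.9946 in DMSO, 0.9966 in the libraries titled sunitinib and 0.9971 in those titled MI-389. The highest correlation with a library of another group was 0.9938, 0.9938 and 0.9746 in the same order. Library medians of log2(FPKM + 1) were 4.59 to 4.76 in DMSO, 4.55 to 4.6 in the libraries titled sunitinib and 4.68 to 4.79 in those titled MI-389. Spike-in RNA was level across libraries, with library median log2 differences between −0.0384 and 0.0259. The authors normalized the values further, and whether they scaled to the spike-ins is not stated. If they did, this level follows from that step, and rescaling to spike-in RNA is no separate check. All 14 T-lineage markers had means of at least 1 FPKM, and their sum was 4747 to 5868 FPKM in DMSO, 5106 to 5354 in the libraries titled sunitinib and 4365 to 4632 in those titled MI-389. In the last group 8 of these 14 markers were called lower and 3 higher against DMSO, where 28.3% and 28.5% of all tested genes were. Their median log2 was −0.33, but −0.05 with quantile scaling (4 higher and 6 lower) and −0.03 with cyclic loess (5 and 6). Without MI-389 replicate 1 or MI-389 replicate 3, 1 was called higher. The part of these markers in the results was not tested. All 5 myeloid markers stayed below 1 FPKM in every library, as did 4 of 5 erythroid and 3 of 5 B cell markers. The other 2 B cell markers were expressed. CD79A had means of 9.07, 6.66 and 8.50 FPKM in DMSO, the libraries titled sunitinib and those titled MI-389. CD79B had 2.33, 2.02 and 2.24 FPKM in the same order. All 5 B cell markers together summed to at most 12.8 FPKM.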

How the data were processed

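Total RNA was isolated with a miRvana kit, spike-in RNA was dosed by cell number, and a SMARTer v4 kit for low input served for polyA libraries, per the labels' protocols; such kits do not mark strand. The submitters' processing notes name HISAT, Cufflinks 2.0.0 and hg19; for annotation and counting the sources used here say nothing. The deposited values are the authors' FPKM, normalized further by the authors, with a floor near 0.1 FPKM; no read totals are given, so depth is unknown.

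A gene was tested if its FPKM averaged 1 or more across the 9 libraries. One limma model (limma 3.58.1, R 4.3.3) on log2(FPKM + 1) held the 3 groups with a variance trend; tests were two-sided, with Benjamini-Hochberg adjustment over 12301 genes. The log2 differences are on that scale, which understates changes of low genes; folds are ratios of mean FPKM. The model was tested on simulated data.

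The 9 genes and the lists were chosen with earlier results of these data known. The naming rule took the 9 genes, up to 2 called rises and 2 called falls per list and comparison, and the 2 most alike genes (mean of at least 5 FPKM). PRDX2, PRDX3, PRDX5 and PRDX6 were named after their values were seen. Exon overlaps are from GENCODE v29 (GRCh38); no hg19 coordinates are given. Alternatives were pseudocounts of 0.1 and 5, no filter or a mean of 5 FPKM, median centring, quantile and cyclic loess scaling, rescaling to spike-in RNA, the 6 compared libraries, a replicate block, no variance trend and each library left out, which leaves 2 in its group. Figures were drawn with matplotlib 3.10.9.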

Additional observations from a re-analysis of the deposited data

How the results depend on the processing

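In the libraries titled MI-389 against DMSO, 117 of the alternative values of the 7 tested genes kept their direction and call, and 2, both of TXNRD1, lost the call. NFE2L2 (log2 0.75 to 0.88) and KEAP1 (−0.63 to −0.50) kept theirs in all 17 alternatives, as did TXN (−0.63 to −0.22) and PRDX1 (−0.86 to −0.42), both closest to 0 with cyclic loess. For the libraries titled sunitinib 86 kept direction and call, 26 lost the call and 7 gained it, and none changed direction. The number of the 7 genes called there was 4, but 1 with no filter, with spike-in rescaling or with 6 libraries, 2 with no variance trend, and 1 to 7 when 1 library was left out. The number of all genes called there was 2370, but 1423 with no filter, 3677 with quantile scaling, 3814 with cyclic loess, 1225 with 6 libraries and 929 to 4244 when 1 library was left out. Without DMSO replicate 1 it was 4244 and without sunitinib replicate 2 it was 929. Between the treated groups the 3 genes that did not pass changed sign: GCLM was −0.088 with median centring, −0.124 with quantile scaling and −0.110 with cyclic loess. TXNRD1 was 0.0064 with quantile scaling and 0.042 with cyclic loess. Leaving out 1 library gave −0.025 to 0.033 for TXNRD1 and −0.079 to 0.024 for GCLC. Median centring, quantile scaling and cyclic loess added a lower call of GCLC, and median centring one of TXNRD1. The cause was not tested. Replicate numbers are shared by the groups, and deviations of same-numbered libraries from their group means correlated between −0.042 and 0.112. Whether libraries of the same number shared a culture or a day is not stated, and these correlations cannot decide it. With the replicate block 6816, 1941 and 6740 genes were called in place of 6979, 2370 and 6927, and of the 7 genes 7, 3 and 4 in place of 7, 4 and 4, the change being TXNRD1 in the libraries titled sunitinib (log2 −0.25, adjusted p = 0.0791).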

Other observations

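Selenoproteins carry a selenocysteine that is inserted at a stop codon read through by a dedicated machinery, and TXNRD1 is one of them. Of a list of 24 further symbols for selenoproteins and that machinery, 14 were found among the deposited symbols and 12 were tested. The rest matched no row, so the counts do not cover the whole list. In the libraries titled MI-389 against DMSO 3 were called higher, 5 lower and 4 not called (median log2 −0.04). Over all tested genes 28.5% were called higher and 28.3% lower. EEFSEC, the elongation factor that delivers selenocysteine, rose 1.36-fold from 27.6 ± 1.42 to 37.6 ± 1.70 FPKM (SD, n = 3; limma adjusted p = 0.000303). SECISBP2, which binds the selenocysteine insertion element, rose 1.33-fold from 40.7 ± 5.16 to 54.1 ± 2.81 FPKM (adjusted p = 0.00282). SEPHS2, which makes the selenium donor, fell 1.80-fold from 103 ± 8.50 to 57.0 ± 3.05 FPKM (adjusted p = 1.11e-05), and SELK, a selenoprotein of the endoplasmic reticulum, fell 1.62-fold (adjusted p = 1.59e-05). With the sunitinib title 1 of the 12 was called lower and 0 higher (3 and 0 at an unadjusted p under 0.05); VIMP was 1.20-fold lower (adjusted p = 0.0400), a call lost without DMSO replicate 2 (0.101), DMSO replicate 3 (0.109), sunitinib replicate 1 (0.0919), sunitinib replicate 2 (0.148) or sunitinib replicate 3 (0.0685).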
